A study of Mus musculus with 10 samples.

Results

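The 6 genes described here are *Ren1* and *Akr1b7*, which mark the cells of the renin lineage, and *Agt*, *Ace*, *Agtr1a* and *Agtr2*, which supply, process and receive angiotensin. They were chosen by symbol from 35663 entries of the deposited expression table, and each has 1 entry. The RNA came from whole kidneys of mouse embryos at E13.5, with 4 wild-type, 3 *Foxd1GC* control and 3 *Ntn1SPKO* libraries. All carry the strain label C57/b6. The genotypes are labelled Wild type, Foxd1-Cre, and Foxd1-Cre; Ntn1/cc. *Foxd1GC* is a knock-in that places a GFP-Cre fusion at the *Foxd1* locus, so that Cre is made in stromal progenitors. The paper counts it as the loss of a *Foxd1* allele. Control and *Ntn1SPKO* kidneys share this knock-in, and wild-type kidneys do not carry it. *Ntn1SPKO* kidneys also carry floxed *Ntn1*, which Cre deletes in the stromal lineage and leaves intact in other cells. Every difference between *Ntn1SPKO* and wild-type kidneys therefore mixes the knock-in with the loss of *Ntn1*, and their parts were not tested. The sources used here do not say how many embryos or litters went into a library, so that p-values measure the spread between these libraries, which may be partly technical.

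Renin, the product of *Ren1*, is the protease that cuts angiotensinogen (*Agt*) to angiotensin I, and the angiotensin-converting enzyme (*Ace*) turns this into angiotensin II. Angiotensin II acts through the AT1 receptor, encoded in the mouse by *Agtr1a* and its paralogue *Agtr1b*, and through the AT2 receptor (*Agtr2*), which is abundant in fetal mesenchyme. In the kidney, renin cells arise from *Foxd1*+ stromal progenitors, spread along the growing arteries and later become confined to the juxtaglomerular apparatus. *Akr1b7*, an aldo-keto reductase, marks these cells and is also made in the adrenal cortex.

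The levels of these genes spanned a wide range. In wild-type kidneys *Agtr2* was the most abundant, with 39.7 ± 5.33 FPKM (mean ± SD, n=4). FPKM are by name fragments per kilobase of sequence and 1e6 fragments, a level per length. *Akr1b7* followed with 5.47 ± 1.43 FPKM, *Ren1* with 3.53 ± 3.60 and *Agtr1a* with 1.30 ± 0.368. *Ace* had 0.278 ± 0.0639 FPKM and *Agt*, the substrate of the pathway, had 0.0700 ± 0.0471. The ranges of *Akr1b7*, *Ren1* and *Agtr1a* overlapped each with the next in this order, while *Agtr2* lay above all others and *Agt* below. The order was the same in *Ntn1SPKO* kidneys, where *Akr1b7* (3.01 ± 0.362 FPKM, n=3) did not overlap *Ren1* (1.65 ± 0.297). In *Foxd1GC* control kidneys, *Ren1* (4.68 ± 2.90 FPKM, n=3) had a higher mean than *Akr1b7* (2.33 ± 1.83), and these ranges overlapped.

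**Figure D1:**
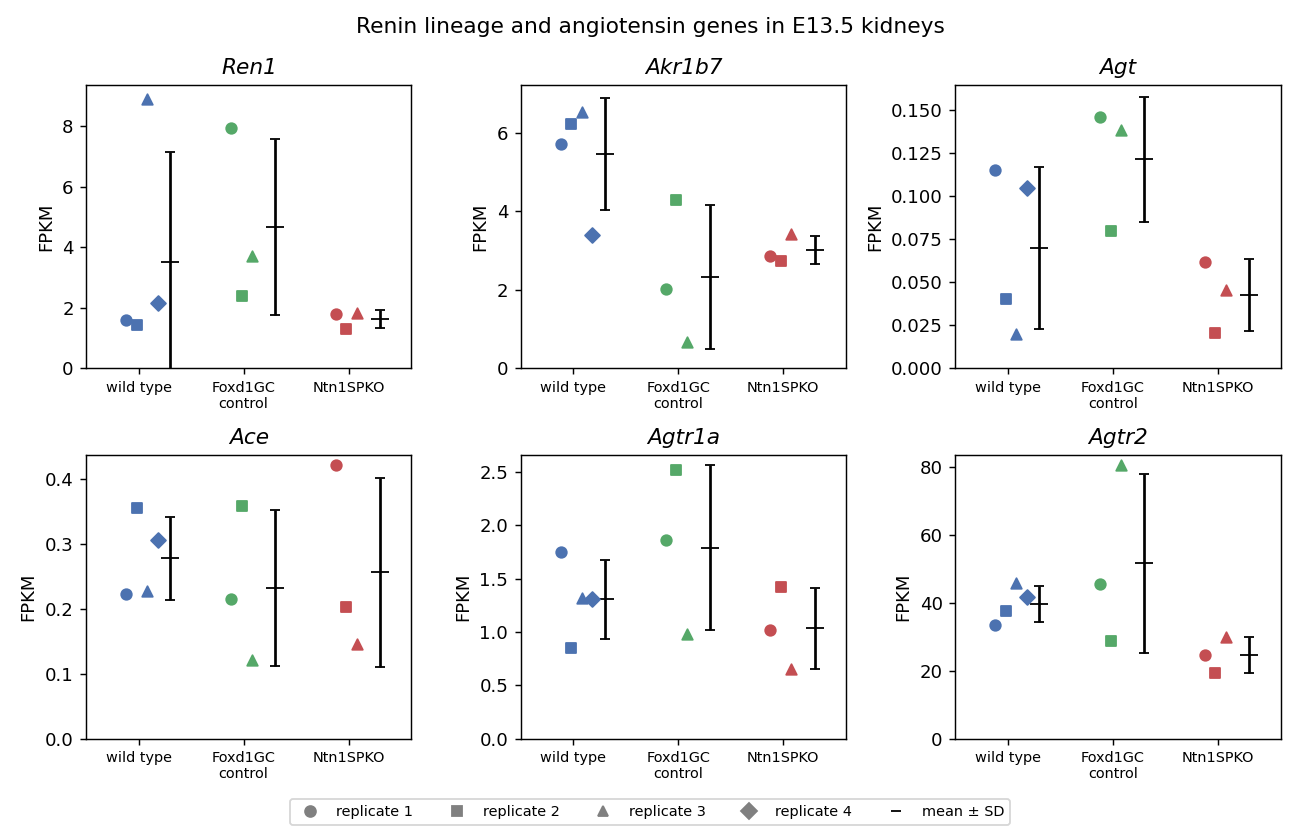
FPKM of each of the 6 genes in every library, by genotype, with a linear axis from 0. The shape of a point gives the replicate number, and the bar at the side the mean ± SD of the group (n=4, 3 and 3), with the wild-type *Ren1* bar ending at the axis. For *Ren1*, wild-type replicate 3 and control replicate 1 stand at 8.91 and 7.94 FPKM, while the 3 *Ntn1SPKO* libraries lie between 1.31 and 1.84.

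These levels rest on different numbers of reads. From the steps between low values, the depth was put roughly at 26.0 to 30.6 M fragments per library (1 M is 1e6). The steps were faint, with scores of 0.112 to 0.272 where regular steps would give 1, so all fragment numbers here are uncertain. They also take the longest coding length of a gene as the length behind its FPKM, which was not tested. These depths correspond to about 614 to 2483 fragments for *Agtr2*, 46 to 319 for *Ren1* and 18 to 184 for *Akr1b7*. *Agtr1a* had about 18 to 82 fragments and *Ace* about 13 to 48, whereas *Agt* had only about 1 to 6 in a library. *Ace* and *Agt* were below the mean of 0.5 FPKM required for a test across all genes, in each comparison. The other 4 genes passed it. Genes were compared with limma on log2(FPKM+0.1), with p-values adjusted over all genes tested, and called where the adjusted p was under 0.1 and the change 2-fold or more. This scale understates the change of genes at low levels. An exact two-sided permutation test was run on each gene alone, in which 3 libraries against 3 cannot give a p below 0.1 and 3 against 4 cannot give one below 0.0286.

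None of the 4 genes tested was called in any comparison. Between *Ntn1SPKO* and control kidneys 0 of 4 were called, where 0.055% of all 14550 genes tested were. Between *Ntn1SPKO* and wild-type kidneys 0 of 4 were called, against a background of 0.0485%, and between control and wild-type kidneys 0 of 4, against 0.00685%. At an unadjusted limma p under 0.05, the counts were 2 of 4 (*Ren1* and *Agtr2*, both lower in *Ntn1SPKO*; 10.7% of all genes), 2 of 4 (*Akr1b7* and *Agtr2*, both lower in *Ntn1SPKO*; 5.76%) and 1 of 4 (*Akr1b7*, lower in control kidneys; 7.06%). At the looser limit of an unadjusted p under 0.1 and a 2-fold change, *Ren1* was lower in *Ntn1SPKO* than in control kidneys (1 of 4, where 1.64% of all genes were lower) and *Akr1b7* lower in control than in wild-type kidneys (1 of 4, where 0.637% were). The comparisons share libraries, so these counts are not independent of each other. In bulk kidneys, fewer cells of a type and less RNA per cell cannot be told apart.

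**Figure D2:**
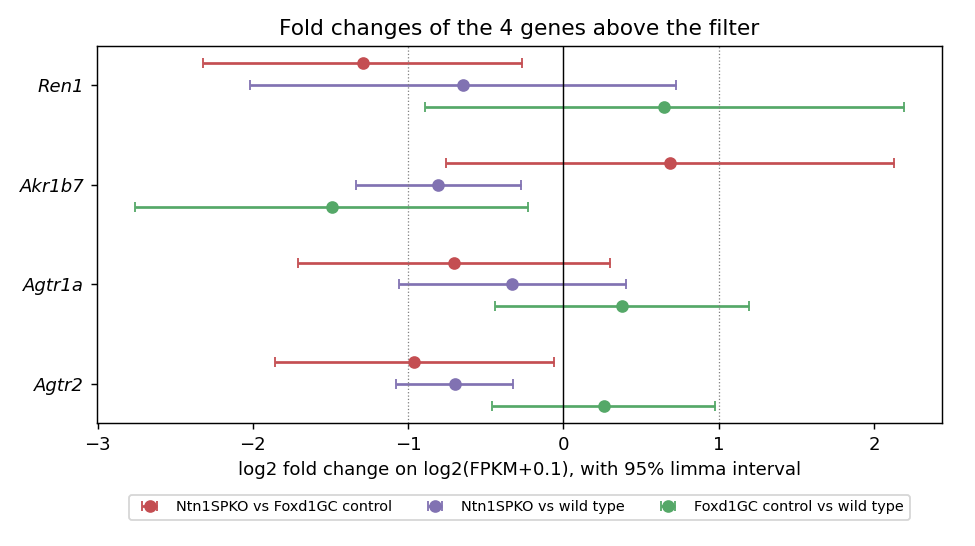
Log2 fold changes of the 4 genes above the filter in the 3 comparisons, on log2(FPKM+0.1), with the 95% interval from limma as a bar and dotted lines at a 2-fold change. *Ren1* and *Agtr2* lie at −1.29 and −0.96 between *Ntn1SPKO* and control kidneys, and *Akr1b7* lies at 0.69 there and at −0.81 and −1.49 in the comparisons with wild-type kidneys.

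The genes of the renin cell are described before those of the angiotensin pathway, starting from the sequences in front of their start sites. *Ren1* (ENSMUSG00000070645.5) lies on the plus strand of chromosome 1 of GRCm38, from 133350510 to 133360325. *Akr1b7* (ENSMUSG00000052131.7) lies on the plus strand of chromosome 6, from 34412334 to 34423142. Both promoters are shown because both genes are known as markers of renin cells and yet differed in level from library to library (Pearson's r=−0.18 over 10 libraries, Spearman's rho=−0.079, given as a description). Which cells made either RNA in these kidneys was not tested. Each sequence is the 250 bases before the RefSeq start site (GRCm38.p6), 5′ to 3′, with the matches to searched motifs in capitals. The gene spans above are from GENCODE and begin before these RefSeq start sites, so the end of each sequence lies within the span.
Ren1, chr1:133350424-133350673, plus strand: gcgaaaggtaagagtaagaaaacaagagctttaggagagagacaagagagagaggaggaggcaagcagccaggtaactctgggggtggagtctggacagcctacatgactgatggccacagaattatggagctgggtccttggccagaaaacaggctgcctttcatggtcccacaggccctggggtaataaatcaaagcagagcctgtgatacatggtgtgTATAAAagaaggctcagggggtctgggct
Akr1b7, chr6:34412112-34412361, plus strand: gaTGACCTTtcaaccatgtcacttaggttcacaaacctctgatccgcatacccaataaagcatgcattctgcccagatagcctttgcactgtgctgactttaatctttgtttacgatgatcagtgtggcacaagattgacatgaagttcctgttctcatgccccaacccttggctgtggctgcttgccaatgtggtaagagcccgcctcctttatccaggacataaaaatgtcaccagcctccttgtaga
In *Ren1* the capitals mark a TATA box (TATAAA) at position −29, counted from the start site. In *Akr1b7* they mark AAGGTCA, the core site of NR5A factors such as steroidogenic factor, read on the minus strand at −248. The windows searched ran to 50 bases after the start site, and 5 of the 6 genes had them, with *Agtr1a* not among these. Of 32851 RefSeq promoter windows of this length, 8.32% held TATAAA on the strand of the gene and 4.72% held AAGGTCA on either strand. The RBPJ core TGGGAA (25.6% of windows) and the cyclic AMP response element TGACGTCA (1.79%), searched on both strands, had no match in the windows of the 5 genes. *Agt* had TATAAA at −30, and *Agtr2* and both *Ace* windows had no match. A match is a description of letters and not of binding.

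*Ren1* had 1.60, 1.43, 8.91 and 2.17 FPKM in wild-type replicates 1 to 4. It had 7.94, 2.39 and 3.70 FPKM in *Foxd1GC* control replicates 1 to 3, and 1.79, 1.31 and 1.84 FPKM in *Ntn1SPKO* replicates 1 to 3. All *Ntn1SPKO* libraries were thus below all control libraries. Replicate 2 of them was also below the lowest wild-type library, and the others lay within the wild-type range. The log2 fold change between *Ntn1SPKO* and control kidneys was −1.29 (standard error 0.43, 95% interval −2.32 to −0.27), a level 0.408 times that of controls, with limma p=0.0212, adjusted p=0.447 and exact permutation p=0.1. Of all genes tested, 19.9% had groups that did not overlap in this comparison, and 1 of the 4 genes here did. Leaving out 1 library at a time moved the value from −1.68 (without control replicate 2) to −0.83 (without control replicate 1), and with the level of Y-linked transcripts as a covariate it was −0.48 (adjusted p=0.999). It stayed below 0 in all of these fits.

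Against wild-type kidneys, *Ren1* in *Ntn1SPKO* kidneys differed by −0.64 on the log2 scale (standard error 0.59, 95% interval −2.02 to 0.72, adjusted p=0.947, exact permutation p=0.6). This value rests on wild-type replicate 3. Without that library the wild-type level was 1.73 ± 0.389 FPKM (n=3) and the difference was −0.06. Control kidneys were 0.65 above wild-type kidneys (standard error 0.66, adjusted p=0.762, exact permutation p=0.486), a value of 1.23 without wild-type replicate 3 and 0.19 without control replicate 1. Wild-type replicate 3 also has the highest summed FPKM, 1002638 against 795829 to 874966 in the other 9 libraries, and is the only wild-type library with Y-linked transcripts. The part of either in the *Ren1* level was not tested. Scaling each library to the same sum left *Ren1* uncalled in each comparison.

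*Akr1b7* was spread in another way. It had 5.72, 6.23, 6.54 and 3.39 FPKM in wild-type replicates 1 to 4. Control replicates 1 to 3 had 2.03, 4.29 and 0.661 FPKM, and *Ntn1SPKO* replicates 1 to 3 had 2.86, 2.74 and 3.42. Wild-type kidneys were mostly highest, the *Ntn1SPKO* libraries were close together, and the controls reached from below all other libraries to within the wild-type range. *Ntn1SPKO* and wild-type kidneys differed by −0.81 on the log2 scale (standard error 0.23, 95% interval −1.34 to −0.27, limma p=0.00859, adjusted p=0.529, exact permutation p=0.0857). The groups overlapped only through wild-type replicate 4 (3.39 FPKM) and *Ntn1SPKO* replicate 3 (3.42 FPKM). Without wild-type replicate 4 the difference was −1.02 with an adjusted p of 0.0696, which is a call. Over all alternatives to this comparison the adjusted p ran from 0.0696 to 0.995.

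Between control and wild-type kidneys the log2 fold change of *Akr1b7* was −1.49 (standard error 0.54, 95% interval −2.76 to −0.23, limma p=0.0264, adjusted p=0.665, exact permutation p=0.0571). None of the 4 genes had groups without overlap in this comparison, where 8.09% of all genes did. Between *Ntn1SPKO* and control kidneys the log2 fold change was 0.69 (standard error 0.60, 95% interval −0.76 to 2.13, adjusted p=0.594, exact permutation p=0.5). Both values depended on the control libraries. They were −0.82 and 0.02 without control replicate 3, and −2.09 (adjusted p=0.189) and 1.28 (adjusted p=0.188) without control replicate 2. *Akr1b7* shares 9.99% of its 31-base coding words with other genes, mostly with *Akr1b10*, so a part of its reads may have been divided between paralogues. Over the 10 libraries these paralogues had 4.74 to 7.39 FPKM for *Akr1b10*, 5.60 to 8.51 for *Akr1b8* and 72.5 to 89.4 for *Akr1b3*. An antisense transcribed pseudogene, *Gm13857*, overlaps the exons of *Akr1b7* and is listed at 0 in each library.

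**Figure D3:**
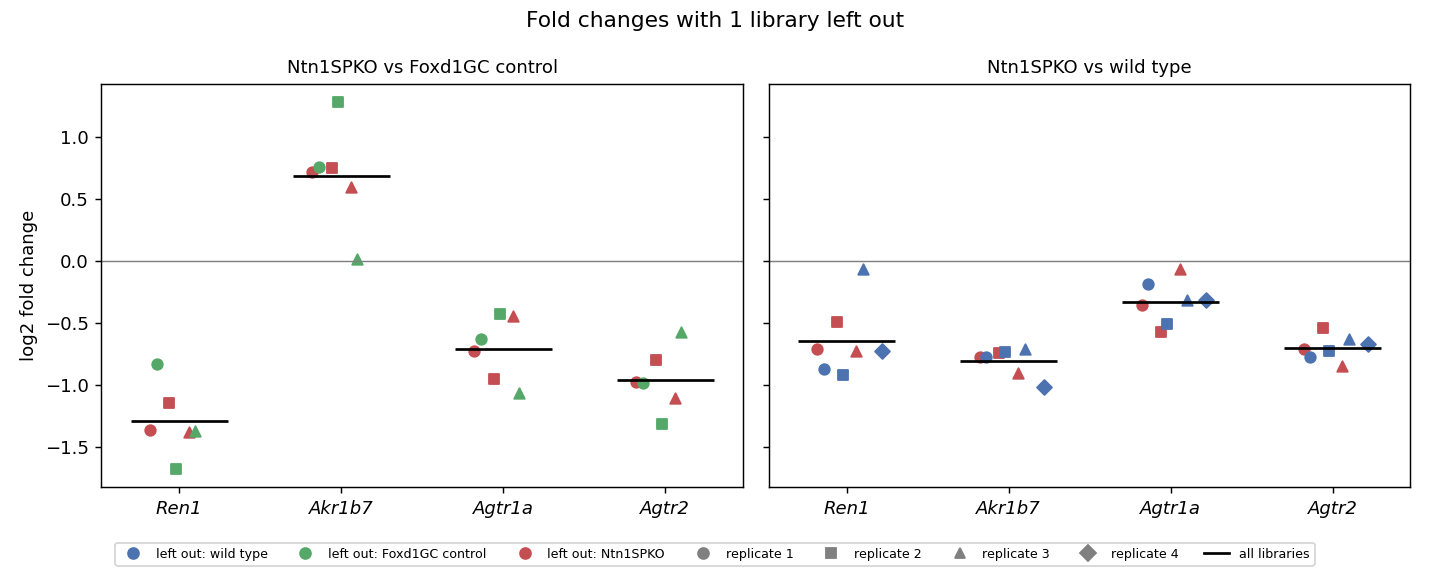
Log2 fold changes on log2(FPKM+0.1) with each library left out in turn, for *Ntn1SPKO* against control kidneys (left) and against wild-type kidneys (right). Color and shape name the library left out, and the black line is the value with all libraries. *Ren1* moves to −0.06 without wild-type replicate 3 on the right, and *Akr1b7* to 0.02 without control replicate 3 on the left.

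Since *Akr1b7* is also a gene of the adrenal cortex, and since the adrenal gland lies on the kidney, adrenal markers were read in the same libraries. *Nr5a1*, the factor that defines steroidogenic cells, was at most 0.194 FPKM, *Star*, which brings cholesterol into mitochondria, at most 0.492, and *Cyp11a1*, the enzyme of the first step of steroid synthesis, at most 0.368. All 3 were highest in control replicate 2, whose *Akr1b7* level was 4.29 FPKM. Some other adrenal genes were highest in other libraries. The sum of 16 adrenal genes was 9.49 to 13.4 FPKM in wild-type, 15.8 to 21.5 in control and 10.2 to 22.6 in *Ntn1SPKO* libraries. It was highest in *Ntn1SPKO* replicate 3 and next in control replicate 3, where *Akr1b7* was 3.42 and 0.661 FPKM. Over the 10 libraries *Akr1b7* and this sum had r=−0.60 and rho=−0.35, and r=−0.43 without these 2 libraries, given as a description. The part of adrenal tissue in the *Akr1b7* level was not tested.

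The angiotensin genes begin with the substrate. *Agt* (ENSMUSG00000031980.9, chromosome 8, 124556534 to 124569706, minus strand) had 0.115, 0.0404, 0.0198 and 0.105 FPKM in wild-type kidneys. It had 0.146, 0.0799 and 0.139 FPKM in control kidneys and 0.0619, 0.0205 and 0.0457 FPKM in *Ntn1SPKO* kidneys. The *Ntn1SPKO* values lay below all control values and within the wild-type range. Between *Ntn1SPKO* and control kidneys, 19.9% of all genes that passed the filter had groups that did not overlap. The difference of group means on log2(FPKM+0.1) was −0.63 against controls (exact permutation p=0.1) and −0.22 against wild-type kidneys (exact permutation p=0.486). With roughly 1 to 6 fragments in a library, the size of the difference from controls was set largely by the pseudocount. It was −0.10 with a pseudocount of 1 and −1.36 with 0.01. In a fit with no filter on low values the comparison with controls had a limma p of 0.0297 and an adjusted p of 0.550. *Agt* is known as a liver gene. The sum of 13 liver markers was 9.20 to 27.8 FPKM in wild-type, 15.3 to 35.4 in control and 4.76 to 16.6 in *Ntn1SPKO* libraries, and its part in the *Agt* level was not tested.

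*Ace* (ENSMUSG00000020681.14, chromosome 11, 105967945 to 105989964, plus strand) had 0.224, 0.355, 0.228 and 0.306 FPKM in wild-type kidneys. The values were 0.216, 0.359 and 0.121 FPKM in control kidneys and 0.422, 0.203 and 0.145 in *Ntn1SPKO* kidneys, so that all groups overlapped. Differences of group means were 0.09 against controls (exact permutation p=0.8) and −0.15 against wild-type kidneys (exact permutation p=0.657). With so few libraries, a difference of the size of the spread within groups may have been missed, and this was not tested. The antisense gene *Gm11651* overlaps exons of *Ace*, and the strand setting of the quantification is not given in the sources used here.

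The receptors differed in level and in pattern. *Agtr1a* (ENSMUSG00000049115.15, chromosome 13, 30336441 to 30382867, plus strand) had 1.75, 0.846, 1.32 and 1.31 FPKM in wild-type kidneys, 1.87, 2.52 and 0.983 in control kidneys, and 1.02, 1.42 and 0.655 in *Ntn1SPKO* kidneys. All groups overlapped. The log2 fold change was −0.71 against controls (standard error 0.42, 95% interval −1.71 to 0.30, adjusted p=0.478, exact permutation p=0.3) and −0.33 against wild-type kidneys (standard error 0.31, adjusted p=0.947, exact permutation p=0.4). Control kidneys were 0.38 above wild-type kidneys (standard error 0.35, adjusted p=0.742). With 1 library left out, the first value ran from −1.06 (without control replicate 3) to −0.42 (without control replicate 2), the second from −0.57 (without *Ntn1SPKO* replicate 2) to −0.07 (without *Ntn1SPKO* replicate 3) and the last from 0.09 (without control replicate 2) to 0.73 (without control replicate 3). *Agtr1a* shares 8.86% of its 31-base coding words with *Agtr1b*, which was itself at most 0.108 FPKM in any library.

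*Agtr2* (ENSMUSG00000068122.10, chromosome X, 21484544 to 21489164, plus strand) had 33.6, 37.6, 46.0 and 41.7 FPKM in wild-type replicates 1 to 4. It had 45.5, 28.8 and 80.5 FPKM in control replicates 1 to 3, and 24.7, 19.4 and 29.8 FPKM in *Ntn1SPKO* replicates 1 to 3. The *Ntn1SPKO* libraries were below every wild-type library, and below the controls but for replicate 2 of that group, which was lower than *Ntn1SPKO* replicate 3. Against wild-type kidneys the log2 fold change was −0.70 (standard error 0.16, 95% interval −1.08 to −0.32), a level 0.616 times that of wild-type kidneys. Limma gave p=0.00294 and an adjusted p of 0.334, and the exact permutation p of 0.0286 is the smallest that 3 against 4 libraries can give. In this comparison 7.1% of all genes had groups that did not overlap, and 1 of the 4 genes here did. With each library left out in turn the value stayed between −0.85 and −0.54. Its adjusted p over all alternatives ran from 0.0474 to 0.995, and in no alternative was *Agtr2* called. The adjusted p of 0.0474 came with the Y-linked covariate, where the log2 fold change was −0.93 and thus under 2-fold, and in the other alternatives the adjusted p was 0.313 or more.

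Against controls *Agtr2* differed by −0.96 on the log2 scale (standard error 0.37, 95% interval −1.86 to −0.06, limma p=0.0396, adjusted p=0.447, exact permutation p=0.2). Without control replicate 3, where *Agtr2* was 80.5 FPKM, the value was −0.58, and without control replicate 2 it was −1.32. With the Y-linked covariate it was −0.33 (adjusted p=0.999). Control and wild-type kidneys differed by 0.26 (standard error 0.31, adjusted p=0.790, exact permutation p=0.6), which turned to −0.12 without control replicate 3. The ratio of the *Agtr2* to the *Agtr1a* level was 19.2 to 44.5 in wild-type, 11.4 to 81.9 in control and 13.6 to 45.6 in *Ntn1SPKO* libraries. In these ratios the groups overlapped (exact permutation p=0.457 to 0.9). Of 6 tests of ratios, including those of *Ren1* to *Akr1b7* (exact permutation p=0.143 to 0.943), the lowest Benjamini-Hochberg value was 0.6.

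Control replicate 3 stood apart in other genes as well. The sum of 16 skeletal muscle genes was 530 FPKM in this library, 81.0 and 148 in the other controls, 96.3 to 149 in wild-type and 65.6 to 94.2 in *Ntn1SPKO* libraries. *Myog*, a factor of muscle differentiation, was 30.0 FPKM in control replicate 3 and 0.379 to 5.62 elsewhere, and *Myod1* and *Actc1* were also highest there (8.40 and 146 FPKM). *Ret*, a receptor of the ureteric bud, was 4.09 FPKM against 14.1 to 20.9 elsewhere, and *Lhx1*, which marks early nephrons, was 2.44 FPKM against 9.01 to 27.5. *Pax2*, *Pax8*, *Sall1* and *Hoxd11* were also lowest in this library. The rest of the kidney list did not follow. *Six2* and *Cited1* were highest there (96.4 and 70.1 FPKM), and *Wt1*, *Gdnf*, *Wnt11*, *Foxd1* and *Eya1* lay within the range of the other libraries. The part of these marker levels in the levels of *Agtr2* and *Akr1b7* was not tested, and the values without this library stand beside both genes above. The comparison of *Ntn1SPKO* with wild-type kidneys, where *Agtr2* was at −0.70, does not include that library. There too the skeletal muscle sum was lower in *Ntn1SPKO* libraries, without overlap, and its part in the *Agtr2* difference was not tested. Of 12 muscle genes tested 0 were called and 8 were lower at an unadjusted limma p under 0.05, where 5.76% of all genes differed.

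**Figure D4:**
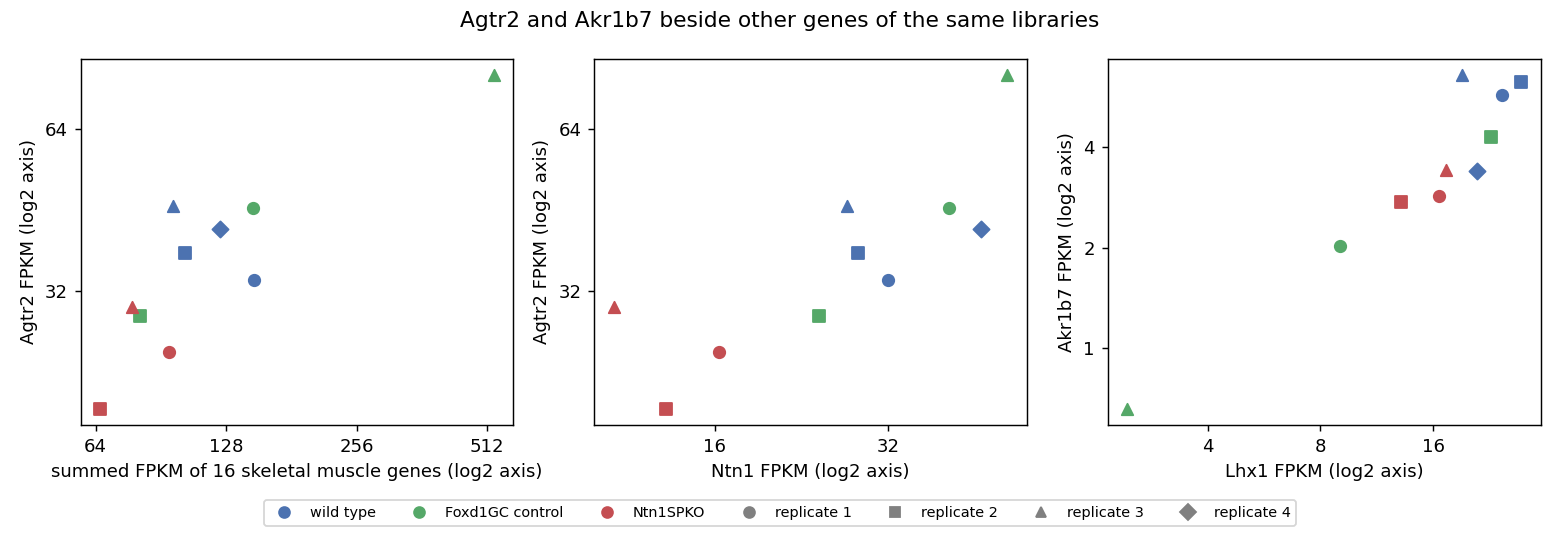
FPKM of *Agtr2* against the summed FPKM of 16 skeletal muscle genes (left) and against *Ntn1* (middle), and of *Akr1b7* against *Lhx1* (right), 1 point per library, with log2 axes. Control replicate 3 is the point at the far right of the left and middle panels and at the lower left of the right panel, and the 3 *Ntn1SPKO* libraries lie at the low end of *Ntn1*, between 10.7 and 16.3 FPKM.

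Over the 10 libraries, which share their groups and so are no independent series, the level of *Agtr2* went with the skeletal muscle sum (Pearson's r=0.86, Spearman's rho=0.76), and r was 0.54 without control replicate 3 and *Ntn1SPKO* replicate 2. It also went with *Ntn1* (r=0.81, rho=0.78, and r=0.82 without *Ntn1SPKO* replicates 2 and 3) and with *Foxd1* (r=0.70, rho=0.70). *Akr1b7* went with *Lhx1* (r=0.95, rho=0.85, and r=0.75 without control replicates 1 and 3). It did not go in this way with *Pax8* (r=0.81, rho=0.33, and r=−0.31 without the same libraries). With the sum of the 13 kidney genes it had r=0.22 and rho=0.079. These relations were picked among 78 after their values were seen and are given as a description, with no test. *Ren1* and *Agtr2* had r=0.60 and rho=0.71, the highest r of the 15 pairs among the 6 genes.

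*Ntn1*, the deleted gene, was lower in each *Ntn1SPKO* library (10.7 to 16.3 FPKM) than in any control (24.2 to 51.4) or wild-type library (27.1 to 46.3). This is the order that the labels give. *Foxd1* was 24.4, 20.0 and 14.6 FPKM on average in wild-type, control and *Ntn1SPKO* kidneys. *Ntn1SPKO* and wild-type kidneys differed in it by −0.72 on the log2 scale (adjusted p=0.193, exact permutation p=0.0286). Control and *Ntn1SPKO* kidneys carry the knock-in at this locus, and its part in the *Foxd1* difference was not tested. The 13 kidney genes summed to 510 to 624 FPKM in every library, 11 endothelial genes to 178 to 248, and 13 mural cell genes to 162 to 257. The sex of the embryos, which the paper did not determine, was unevenly spread over the groups, judged by Y-linked transcripts. Its part in the differences between groups cannot be told apart from that of the genotype. Y-linked transcripts were present in all 3 *Ntn1SPKO* libraries, in control replicate 2 and in wild-type replicate 3. With their level as a covariate, which leaves wild-type replicate 3 as the only wild-type library of its kind, *Ren1* was lower in *Ntn1SPKO* than in wild-type kidneys by a log2 fold change of −2.36 (adjusted p=0.00829) and *Akr1b7* by −1.09 (adjusted p=0.0836). Between *Ntn1SPKO* and control kidneys, where control replicate 2 is the only control with these transcripts, the same covariate moved *Ren1* and *Agtr2* towards 0 and turned *Akr1b7* from 0.69 to −0.37 (adjusted p=0.999).

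None of the other genes of the angiotensin system was called. Of 18 further genes, which encode peptidases, receptors, a renin receptor and kinin genes, 13 passed the filter and 0 were called in any comparison. Their median log2 fold change was 0.01 between *Ntn1SPKO* and control kidneys, −0.04 between *Ntn1SPKO* and wild-type kidneys and −0.14 between control and wild-type kidneys, with medians of all genes between −0.0072 and 0.0067. The medians of the 4 tested genes described here were −0.83, −0.67 and 0.32. At an unadjusted limma p under 0.05, 1 of the 13 was higher in *Ntn1SPKO* than in control kidneys, where 10.7% of all genes differed. In the same way 2 were lower in *Ntn1SPKO* than in wild-type kidneys (5.76% of all genes), and 0 differed between control and wild-type kidneys (7.06%).

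The gene of the first count was *Agtrap*, whose product binds the AT1 receptor and promotes its internalization, with 10.9 to 16.2 FPKM in *Ntn1SPKO* and 9.14 to 11.3 in control kidneys. These groups overlapped, and the log2 fold change was 0.46 (standard error 0.17, adjusted p=0.447, exact permutation p=0.2). The others were the peptidases *Mme* (neprilysin) and *Anpep* (aminopeptidase N), which break down angiotensins. *Mme* had 24.8, 23.6 and 20.9 FPKM in *Ntn1SPKO* kidneys against 30.5, 31.5, 31.7 and 34.8 in wild-type kidneys. The groups did not overlap, which was so for 7.1% of all genes. The log2 fold change was −0.48 (standard error 0.080, limma p=0.000419, adjusted p=0.149, exact permutation p=0.0286). *Anpep* had 13.4, 15.1 and 12.3 FPKM against 15.1, 20.6, 20.5 and 22.3, with a log2 fold change of −0.52 (standard error 0.14, adjusted p=0.515, exact permutation p=0.0571). Against controls, *Mme* was at −0.32 and *Anpep* at −0.16, and both overlapped with them. *Enpep*, aminopeptidase A, had the largest difference of the list between control and wild-type kidneys (−0.72, adjusted p=0.665), and was lowest in control replicate 3, at 3.41 FPKM.

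**Figure D5:**
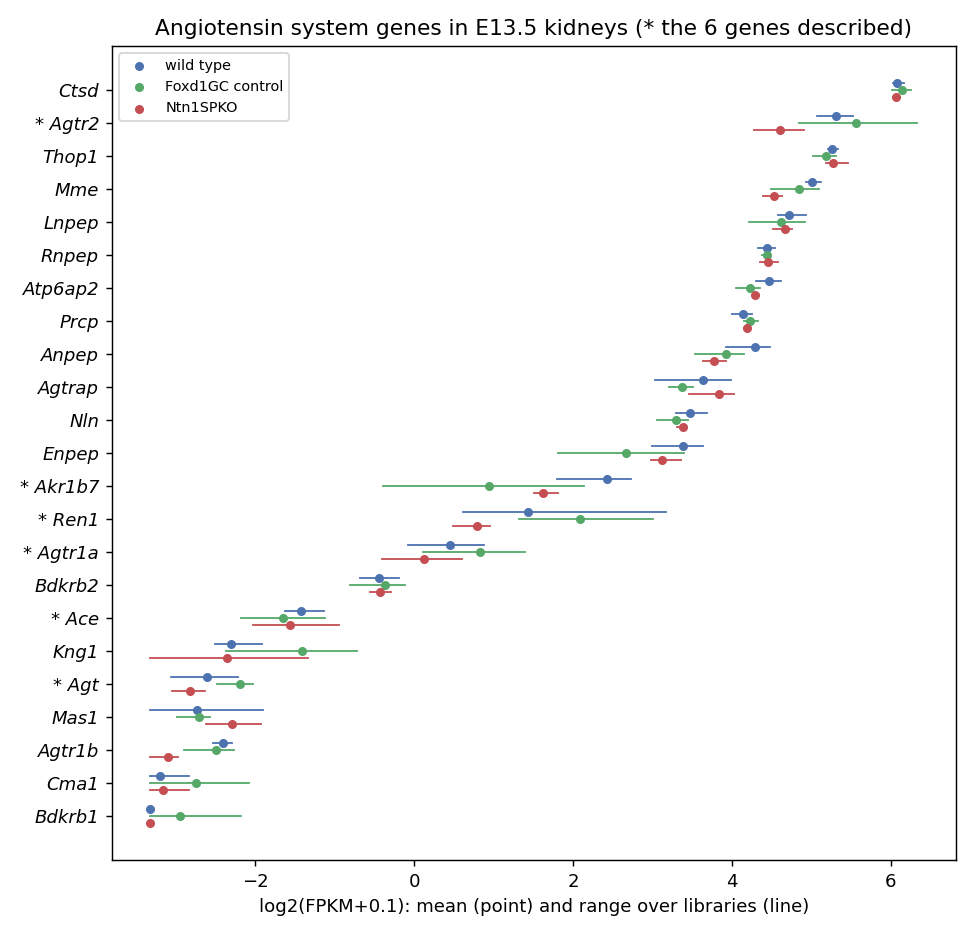
Levels of the 6 genes (marked *) and of 17 other genes of the angiotensin and kinin systems on log2(FPKM+0.1), with a point for the mean and a line for the range over the libraries of each group, ordered by level. *Agtr2* stands near the top of the list with its lowest levels in *Ntn1SPKO* kidneys, and *Agt* lies among the genes near 0.

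Of 20 regulators of renin cell identity, 16 or 17 passed the filter and 0 were called in any comparison. Their medians were 0.06, 0.04 and −0.05 in the same order. Between *Ntn1SPKO* and control kidneys 2 of 17 were higher at an unadjusted limma p under 0.05, where 10.7% of all genes differed. These were the coactivators *Crebbp* (log2 fold change 0.40, adjusted p=0.447) and *Ep300* (0.20, adjusted p=0.447), which bind CREB at cyclic AMP response elements. Both were without overlap (exact permutation p=0.1). So was *Gja4*, which was lower (4.04 to 5.59 FPKM against 5.80 to 6.76). These made 3 of 17, where 19.9% of all genes had groups that did not overlap. In both comparisons that include control kidneys, the largest difference of the list was that of *Jag1*, a Notch ligand, at 0.45 between *Ntn1SPKO* and control kidneys and −0.70 between control and wild-type kidneys (adjusted p=0.533 and 0.665), and it was at −0.26 between *Ntn1SPKO* and wild-type kidneys (adjusted p=0.941). In that last comparison *Foxd1*, at −0.72, had the largest difference and was the only gene of the list with an unadjusted limma p under 0.05 (adjusted p=0.193). *Jag1* had its lowest level, 9.08 FPKM, in control replicate 3. *Tbx18*, a factor of mural cell progenitors, was at −0.44 between *Ntn1SPKO* and control kidneys (adjusted p=0.491), and *Nr3c2*, the mineralocorticoid receptor, at 0.69 between control and wild-type kidneys (adjusted p=0.669).

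The genes whose pattern over the 10 libraries was most like that of each gene were taken among 14533 genes by Pearson's r of log2 values, with no test. *Agtr2* was closest to *F13a1* (r=0.99, rho=0.99), which encodes a coagulation factor subunit made by macrophages, to *Dmrt2* (r=0.99, rho=0.98), a factor of the dermomyotome, and to *Abca9* (r=0.97, rho=0.89). *Akr1b7* was closest to *Gnai1* (r=0.98, rho=0.87), *Dpp4* (r=0.97, rho=0.84), a peptidase of the proximal tubule brush border, and *Clec18a* (r=0.97, rho=0.95). *Ren1* was closest to *Tm2d2* (r=0.94, rho=0.81), *Crip1* (r=0.93, rho=0.68) and *Ift20* (r=0.92, rho=0.81). *Agtr1a* was closest to *Nmnat1* (r=0.90, rho=0.94) and *Map3k6* (r=0.87, rho=0.88). *Agt* (*Trim35*, *Nacc2* and *Emilin3*, r=0.93 to 0.95) and *Ace* (*Gtdc1*, *Klhl23* and *Ube2v1*, r=0.92 to 0.94) rest on few fragments. The top genes of the 6 did not overlap.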

How the data were processed

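RNA-seq values of 10 libraries of whole E13.5 kidneys were used, grouped by their labels. Per the methods of the study, the authors ran Salmon on an index of Ensembl GRCm38 coding sequences, followed by tximport. The submitters' processing notes also name bcl2fastq 2.17.1.14. The deposited values are FPKM, not counts. Median-of-ratios factors were the same in all 10 libraries, at 1.00, so the deposited values appear to be scaled to equal factors already. They were used as they are, and a depth inferred from them may differ from the sequencing depth. By the description of the index, reads outside coding sequence would not enter the values. The entries include pseudogenes such as *Gm13857*, however, so the index may have held more than coding sequences.

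A mean of 0.5 FPKM or more over the fitted libraries was required. The test was that of limma 3.58.1 (R 4.3.3; eBayes, intensity trend) on log2(FPKM+0.1), fitted to the 2 groups compared, with Benjamini-Hochberg adjustment. The fit was tested on simulated data. Alternatives were other pseudocounts, filters, scalings, eBayes settings, thresholds, a joint fit of all 10 libraries, a replicate block, a Y-linked covariate and each library left out in turn. Positions are 1-based, from GENCODE M21, and promoters are from RefSeq GRCm38.p6.

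The 6 genes and all lists were chosen with earlier results of these data known. Named genes were the 6, list genes called or else the 2 with the largest differences, *Ntn1*, *Foxd1*, defining markers, paralogues and the 3 genes most like each. *Ret*, *Lhx1*, the other kidney genes named beside them, *Crebbp*, *Ep300* and *Gja4* were added after their values were seen. *Ren2* was not analysed here, and some genes that this rule names are not reported here.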

Additional observations from a re-analysis of the deposited data

Results flagged for a closer look

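The *Ren1* level of wild-type replicate 3 stood apart from the other wild-type libraries. It was 8.91 FPKM, and the next highest was 2.17 FPKM. This gap is 0.901 of the whole range of the 4 libraries, above the 95% critical value of Dixon's test for 4 samples. Among the 6 genes this was the only wild-type value past that limit, and chance alone passes it in about 1 in 20 groups. The groups of 3 libraries were not tested in this way. In the same library *Akr1b7* was 6.54 FPKM, close to the next highest at 6.23, and *Agtr2* was 46.0 FPKM, with the next highest at 41.7.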

How the results depend on the processing

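The count of 0 genes called among the 4 tested held under most alternatives. It became 1 (*Ren1*) between *Ntn1SPKO* and control kidneys and 1 (*Akr1b7*) between control and wild-type kidneys where the unadjusted p had to be under 0.1 and the change 2-fold or more. Between *Ntn1SPKO* and wild-type kidneys it became 2 (*Akr1b7* and *Ren1*) with the Y-linked level as a covariate, and with 1 library left out it ran from 0 to 1 (*Akr1b7*, without wild-type replicate 4). For the other angiotensin genes and the renin cell regulators it was 0 under every alternative run, and the marker lists were not refitted. Fold changes of the tested genes reversed in 2 cases. *Akr1b7* turned from 0.69 to −0.37 between *Ntn1SPKO* and control kidneys with the Y-linked covariate, and *Agtr2* from 0.26 to −0.12 between control and wild-type kidneys without control replicate 3, the lowest of a range up to 0.62 with other libraries left out. The causes were not tested. The small differences of *Ace*, which was not tested across genes, also changed sign with 1 library left out. They ran from −0.22 to 0.36 between *Ntn1SPKO* and control kidneys, from −0.46 to 0.09 between *Ntn1SPKO* and wild-type kidneys and from −0.50 to 0.03 between control and wild-type kidneys. The difference of *Agt* between control and wild-type kidneys, 0.41, was 0.07 with a pseudocount of 1 and 0.91 with 0.01. The numbers of all genes called in the 3 comparisons, 8, 7 and 1, were 0 with all 10 libraries fitted jointly and at most 78 (without control replicate 2), 178 (Y-linked covariate) and 20 (without control replicate 2) with the threshold kept.

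Over all genes above the filter, same-numbered libraries did not deviate together (correlations of −0.039 to 0.078). Such a correlation cannot decide whether single genes went together by replicate number. With the replicate block, 0 of the 4 genes were called in each comparison, and 4 in place of 8 of all genes between *Ntn1SPKO* and control kidneys. *Ren1* remained at −1.29 there (adjusted p=0.444).

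FPKM hold no counts, and the depth was inferred. *Agt* and *Ace* lie too low for a difference of the size of their spread to be detected. With 3 libraries in 2 of the groups, exact permutation tests between these cannot reach a p under 0.1.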
